A study of Mus musculus with 16 samples.

Results

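The clustered protocadherins were followed in 3T3L1 cells, a mouse fibroblast line that can be driven to become fat cells, after exposure to dex (dexamethasone, a synthetic glucocorticoid) or to its DMSO vehicle. Members were taken by gene symbol, as every array probe whose annotation names a single Pcdha, Pcdhb, Pcdhga, Pcdhgb or Pcdhgc gene with a number. This gave 50 genes with 54 probes, of 19640 named genes and 38467 probes on the array. The alpha cluster had 9 probes for 9 genes, the beta cluster 26 probes for 22 genes, and the gamma cluster 19 probes for 19 genes, of which 10 were gamma A, 7 gamma B and 2 gamma C. The groups were dex for 2 h, DMSO for 2 h, dex for 36 h and DMSO for 36 h, with 4 biological replicates in each and 16 arrays in all. Cells of every group were of this 1 line, no group is labelled as genetically altered, and the labels give no dose of dex. Each value is the log ratio of a sample (Cy5) over a pool of the samples (Cy3), read as log2, so 0 means the level of the pool and a value cannot be set against that of another gene. Members were selected on their symbols, but the family itself was chosen by the log2 difference between dex and DMSO at 36 h seen in earlier results on these arrays, so the 36 h values below are a description of the members. Their adjusted p-values come from the fit of all probes and mark which members passed, and they are no independent evidence for the family.

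Clustered protocadherins are cell-surface adhesion proteins of the cadherin superfamily, encoded in tandem arrays on mouse chromosome 18 in the order alpha, beta, gamma. Each variable exon of the alpha and gamma clusters has a promoter of its own and is spliced to constant exons shared by its cluster, while the beta genes are single exons with no constant part. In neurons each cell switches on its own small set of promoters, with the insulator protein CTCF and the cohesin ring joining promoters to distant enhancers, and the resulting combination of surface proteins lets a neuron tell its own branches from those of others. The C-type isoforms at the end of the alpha and gamma arrays are not chosen in this random way in neurons. The members resemble each other in sequence, so a probe may also read its relatives, and no probe sequence was examined here.

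The arrays were centred alike, with medians from -0.011 to 0.0083, but were noisier at 2 h. The SD of all probes around their group means was 0.168 to 0.435 on the 2 h arrays and 0.108 to 0.205 on the 36 h arrays. DMSO 2 h replicate 4 stood apart, with a mean correlation with its own group of -0.104 across probes, against 0.073 to 0.334 on the other 2 h arrays. Signal over background is unknown, since only ratios were analysed. The glucocorticoid targets Fkbp5, Tsc22d3 and Glul all rose with dex, by 2.36, 2.76 and 3.09 on the log2 scale at 2 h and by 3.11, 2.43 and 3.84 at 36 h. The values for Tsc22d3 are of 1 of its 4 probes. Its other probes had log2 differences of 1.11, 0.87 and -0.068 at 2 h and of 1.01, 0.97 and 0.45 at 36 h.

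At 36 h the beta and gamma clusters were lower with dex and the alpha cluster was not. Of 54 member probes, 19 passed an adjusted p of 0.05 (limma, Benjamini-Hochberg over all probes) and all 19 were lower with dex, while 8.83% of all probes passed, 3.74% lower and 5.09% higher. These were 10 of 26 beta probes and 9 of 19 gamma probes, and 0 of 9 alpha probes. In all, 48 of 54 members had a negative log2 difference, with a median of -0.34 over members and -0.0043 over all probes. The median log2 difference was -0.41 for gamma, -0.35 for beta and 0.018 for alpha. On 34 member probes every dex array lay below every DMSO array, as on 13.8% of all probes, and on 1, Pcdha7, every dex array lay above, as on 13.0% of all probes. In a culture, fewer cells expressing a gene and less RNA per cell cannot be told apart. The count of members moved with single arrays. It was 12 without dex 36 h replicate 1, 12 without dex 36 h replicate 3, 10 without DMSO 36 h replicate 1 and 11 without DMSO 36 h replicate 2. It was 23 without DMSO 2 h replicate 4 and 24, the highest, without DMSO 2 h replicate 1. The shares of all probes in these fits are not given here, so the move cannot be read as particular to the members. Fitted on the 36 h arrays alone, 33 member probes passed, of which 32 were lower, where 18.2% of all probes passed.

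**Figure D1:**
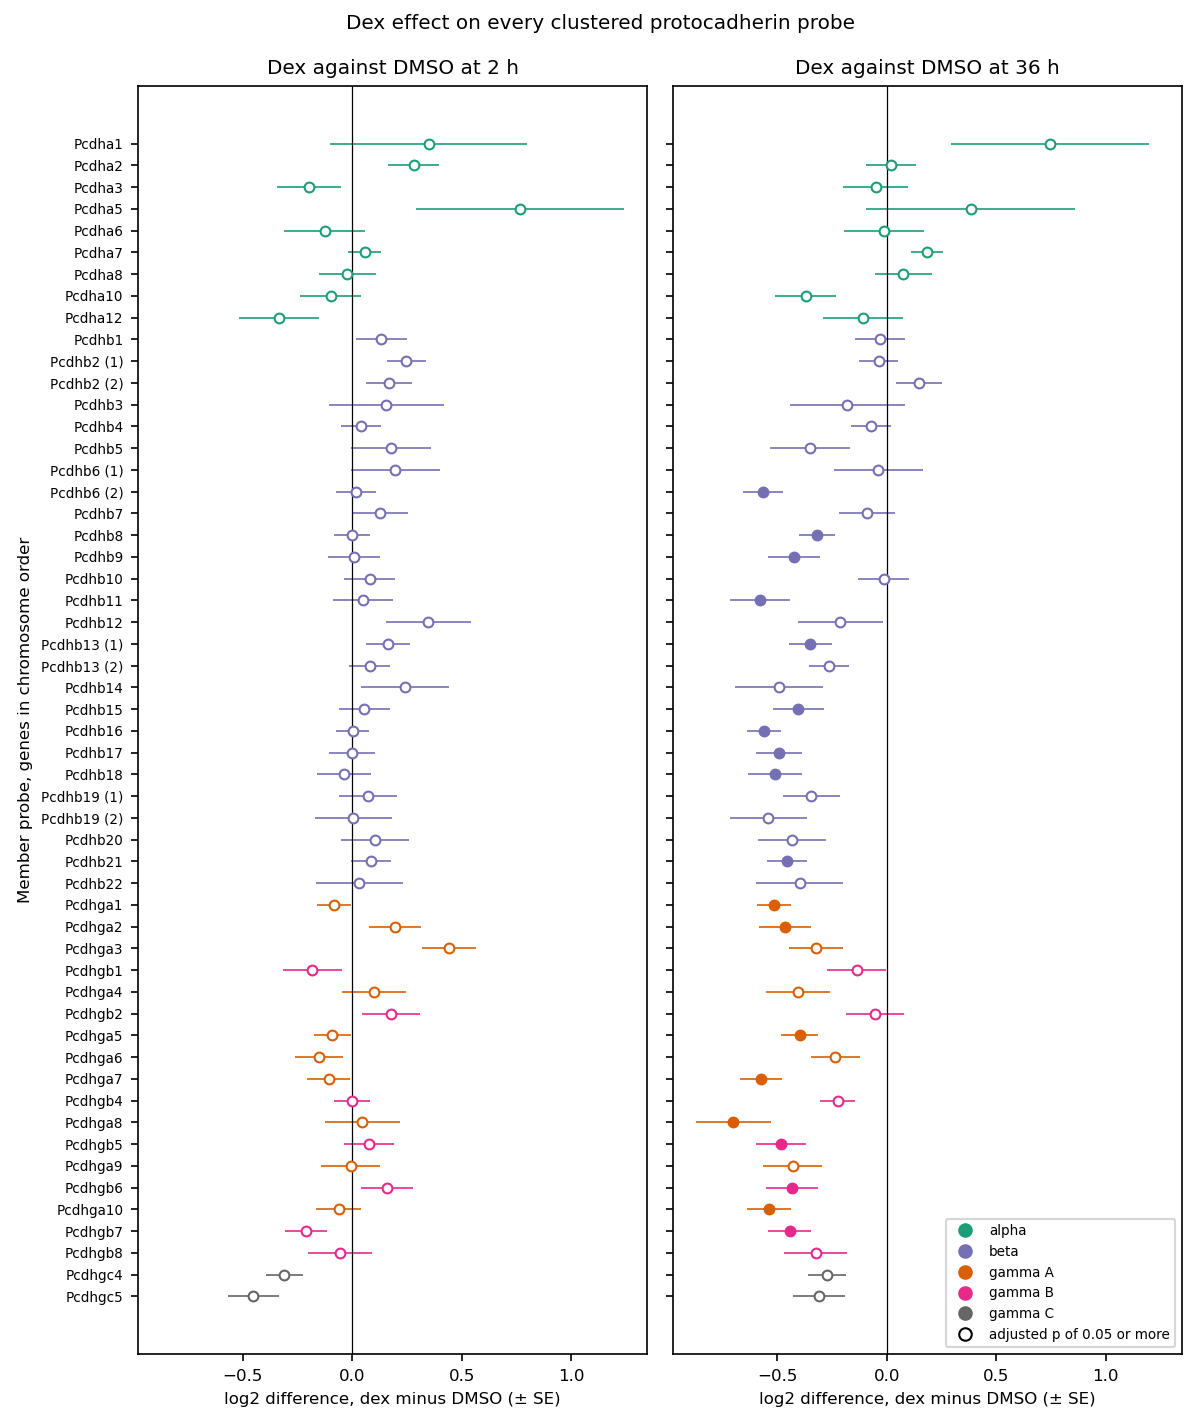
Log2 difference between dex and DMSO (x axis, bars are ± 1 SE of the limma fit) for each of the 54 member probes (y axis, genes in chromosome order), at 2 h in the left panel and at 36 h in the right. Filled points passed an adjusted p of 0.05. At 36 h the 19 filled points all lie left of 0, in the beta and gamma clusters, and at 2 h no point is filled.

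Averaged over its probes, the gamma cluster had log2 ratios of -0.28, -0.21, -0.34 and -0.10 on the dex 36 h arrays, against 0.23, 0.20, 0.069 and 0.11 on the DMSO 36 h arrays. All dex arrays lay below the pool and all DMSO arrays above it. The gamma mean was -0.23 ± 0.10 with dex and 0.15 ± 0.075 with DMSO (SD, n = 4 each). The beta cluster averaged -0.24, -0.28, -0.33 and -0.14 on the dex 36 h arrays, against 0.064, 0.11, 0.039 and 0.027 on the DMSO 36 h arrays. Its mean was -0.25 ± 0.081 with dex and 0.061 ± 0.038 with DMSO (SD, n = 4 each), and the groups did not overlap. In both clusters dex replicate 4 was the dex array nearest to the vehicle. The alpha cluster averaged 0.0057 ± 0.013 with dex and -0.090 ± 0.11 with DMSO at 36 h (SD, n = 4 each), so the difference of 0.096 was smaller than the spread of the DMSO arrays.

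**Figure D2:**
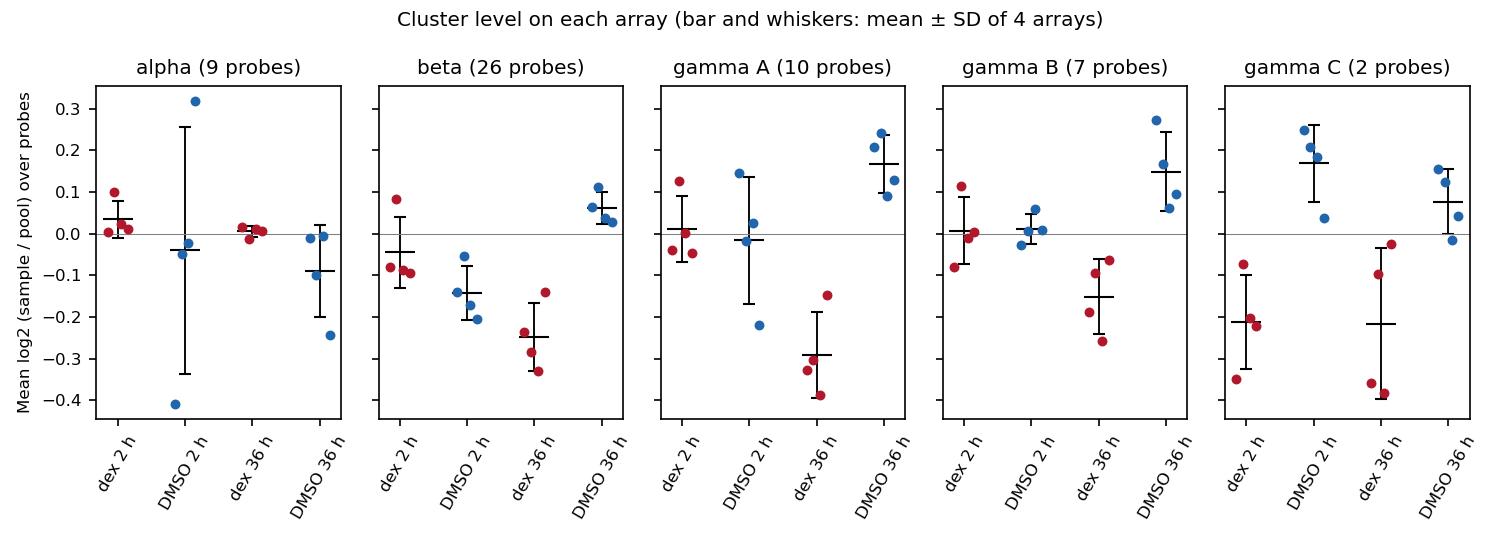
Mean log2 ratio of sample over pool (y axis) over the probes of each cluster on each of the 16 arrays, by group (x axis). Points are arrays (red dex, blue DMSO) and bars with whiskers are the mean ± SD of 4 arrays. The dex 36 h arrays lie below the DMSO 36 h arrays for beta, gamma A, gamma B and gamma C but not for alpha. At 2 h gamma C, a mean of 2 probes, alone shows dex below DMSO on every array.

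Among the gamma A genes, 6 of 10 fell at 36 h, where 3.74% of all probes were called lower. On all 10 the dex arrays lay below the DMSO arrays, as on 13.8% of all probes. Pcdhga8 had the largest difference of any member that passed, with log2 ratios of -0.48, -0.31, -0.68 and -0.35 with dex, against 0.28, 0.41, 0.089 and 0.21 with DMSO. Its log2 difference was -0.70 ± 0.17 (SE, limma adjusted p = 0.0184), or 1.63-fold lower. Pcdhga7 had -0.47, -0.28, -0.44 and -0.089 with dex, against 0.23, 0.28, 0.21 and 0.29 with DMSO, where the vehicle arrays were close together. The log2 difference of Pcdhga7 was -0.57 ± 0.096 (limma adjusted p = 0.0012). Pcdhga10 had -0.35, -0.49, -0.41 and -0.23 with dex, against 0.26, 0.18, 0.15 and 0.10 with DMSO. It was 1.45-fold lower with dex (limma adjusted p = 0.0032), and all 4 dex arrays lay below the pool.

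Pcdhga1, the first gene of the gamma array, had log2 ratios of -0.36, -0.47, -0.39 and -0.16 with dex, against 0.17, 0.27, 0.16 and 0.093 with DMSO. Its log2 difference of -0.52 ± 0.078 had the smallest adjusted p of the gamma genes (4.69e-04, limma). Pcdhga2 beside it had -0.34, -0.35, -0.32 and -0.055 with dex, against 0.27, 0.26, 0.056 and 0.22 with DMSO, a log2 difference of -0.47 ± 0.12 (limma adjusted p = 0.0228). Dex replicate 4 was set apart from the other dex arrays on this probe. Pcdhga5 had -0.23, -0.082, -0.27 and -0.10 with dex, against 0.23, 0.36, 0.17 and 0.15 with DMSO, and was 1.32-fold lower (limma adjusted p = 0.0070). The gamma A genes that did not pass at 36 h were Pcdhga3, Pcdhga4, Pcdhga6 and Pcdhga9, with log2 differences of -0.32, -0.41, -0.24 and -0.43 and adjusted p of 0.062 to 0.233. Each of them passed when the 36 h arrays were fitted alone (limma adjusted p from 0.0080 to 0.0340), where 18.2% of all probes passed.

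Among the gamma B genes 3 of 7 fell at 36 h, where 3.74% of all probes were called lower. Pcdhgb8 and the gamma C genes, which lie after these 3 on the chromosome, did not pass. Pcdhgb5 had log2 ratios of -0.14, -0.023, -0.51 and -0.045 with dex, against 0.46, 0.31, 0.21 and 0.24 with DMSO. The log2 difference was -0.48 ± 0.11 (limma adjusted p = 0.0151), with dex replicate 3 the lowest array. Pcdhgb6 had -0.22, -0.090, -0.44 and -0.17 with dex, against 0.23, 0.39, 0.083 and 0.11 with DMSO, a log2 difference of -0.43 ± 0.12 (limma adjusted p = 0.0338). Pcdhgb7 had -0.17, -0.0095, -0.24 and 0.023 with dex, against 0.40, 0.49, 0.18 and 0.31 with DMSO. It was 1.36-fold lower (limma adjusted p = 0.0091), with all vehicle arrays above the pool. The other gamma B genes had log2 differences of -0.053 for Pcdhgb2, -0.14 for Pcdhgb1, -0.23 for Pcdhgb4 and -0.33 for Pcdhgb8, which RefSeq lists as a transcribed pseudogene, and none of these passed. With the 36 h arrays fitted alone Pcdhgb4 passed (limma adjusted p = 0.0392), and Pcdhgb1, Pcdhgb2 and Pcdhgb8 did not.

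Beta genes fell at 36 h on 10 of 26 probes, each for another gene, where 3.74% of all probes were called lower. Pcdhb16 had log2 ratios of -0.45, -0.61, -0.58 and -0.65 with dex, against 0.053, 0.036, -0.092 and -0.054 with DMSO. The log2 difference of -0.56 ± 0.077 had the smallest adjusted p of all members (2.17e-04, limma), and the gap between the groups was wider than the range within either. Pcdhb6, by 1 of its probes, had -0.43, -0.41, -0.49 and -0.31 with dex, against 0.043, 0.31, 0.14 and 0.13 with DMSO, and was 1.48-fold lower (limma adjusted p = 8.96e-04). The other Pcdhb6 probe had a log2 difference of -0.038 ± 0.20 (limma adjusted p = 0.983), so the probes of this gene disagreed. Pcdhb21 had -0.39, -0.41, -0.56 and -0.20 with dex, against 0.057, 0.19, 0.038 and -0.028 with DMSO, a log2 difference of -0.46 ± 0.091 (limma adjusted p = 0.0047).

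Pcdhb17 had log2 ratios of -0.19, -0.44, -0.41 and -0.25 with dex, against 0.053, 0.30, 0.23 and 0.10 with DMSO, and was 1.41-fold lower (limma adjusted p = 0.0080). Pcdhb18 beside it had -0.35, -0.34, -0.74 and -0.17 with dex, against -0.040, 0.22, 0.13 and 0.13 with DMSO. The log2 difference of Pcdhb18 was -0.51 ± 0.12 (limma adjusted p = 0.0176), with dex replicate 3 far below the others. Pcdhb11 had the largest beta difference, with -0.45, -0.84, -0.57 and -0.24 with dex, against 0.16, 0.052, 0.056 and -0.061 with DMSO. It was 1.49-fold lower (limma adjusted p = 0.0155), and its dex arrays were widely spread. Pcdhb15 had -0.30, -0.40, -0.37 and -0.23 with dex, against 0.10, 0.077, 0.10 and 0.044 with DMSO, a tight pair of groups with a log2 difference of -0.40 ± 0.12 (limma adjusted p = 0.041).

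The remaining beta genes that passed were Pcdhb8, Pcdhb9 and Pcdhb13. Pcdhb8 had log2 ratios of -0.40, -0.41, -0.37 and -0.40 with dex, against -0.13, 0.019, -0.19 and 9.00e-04 with DMSO, and a log2 difference of -0.32 ± 0.084 (limma adjusted p = 0.0272). Pcdhb9 had -0.28, -0.73, -0.15 and -0.41 with dex, against 0.016, 0.13, 0.055 and -0.071 with DMSO, where dex replicate 2 was the lowest (limma adjusted p = 0.0373). Pcdhb13, by 1 probe, had -0.19, -0.26, -0.21 and -0.042 with dex, against 0.17, 0.25, 0.21 and 0.057 with DMSO (limma adjusted p = 0.0404). Its other probe had a log2 difference of -0.26 ± 0.093 that did not pass (limma adjusted p = 0.0975). Both Pcdhb19 probes were negative without passing, at -0.35 and -0.54, as were Pcdhb14 at -0.49, Pcdhb20 at -0.43 and Pcdhb22 at -0.40. With the 36 h arrays fitted alone, each of these and the other Pcdhb13 probe passed (limma adjusted p from 0.0056 to 0.0371). In that fit 18.2% of all probes passed.

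The members of the beta array that passed in the fit of all 16 arrays lay from Pcdhb6 onward, a split made after the values were seen. The 20 probes from Pcdhb6 to Pcdhb22 had a median log2 difference of -0.42. On 16 of them every dex array lay below every DMSO array, as on 13.8% of all probes. The 6 probes from Pcdhb1 to Pcdhb5, the genes nearest the alpha array, had a median of -0.055, and on 2 of them, Pcdhb3 and Pcdhb5, the dex arrays lay below. Pcdhb5 had a log2 difference of -0.35 (limma adjusted p = 0.291), and it passed at 0.0328 when the 36 h arrays were fitted alone. The place of the split thus depends on the fit. Within the later stretch Pcdhb10 and Pcdhb7 were close to 0, with log2 differences of -0.015 and -0.091, so the values were not even along the array.

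The gamma C genes, with 2 probes, were the only subgroup of those described whose dex arrays lay below the DMSO arrays on every probe at both times. Pcdhgc4, an isoform that interneurons need for survival in mice, had log2 ratios of -0.29, -0.017, -0.15 and -0.17 with dex at 2 h, against 0.21, 0.091, 0.22 and 0.10 with DMSO. At 36 h it had -0.35, -0.18, -0.30 and -0.11 with dex, against 0.17, 0.11, -0.094 and -0.020 with DMSO. The log2 difference was -0.31 ± 0.085 at 2 h and -0.27 ± 0.085 at 36 h, and neither passed (limma adjusted p = 0.0874 and 0.0587). With the 36 h arrays fitted alone Pcdhgc4 passed (limma adjusted p = 0.0395). Pcdhgc5, its neighbour, had -0.41, -0.13, -0.26 and -0.27 with dex at 2 h, against 0.29, 0.33, 0.15 and -0.028 with DMSO. At 36 h it had -0.37, -0.011, -0.47 and 0.061 with dex, against 0.15, 0.14, 0.063 and 0.11 with DMSO. Its log2 difference was -0.45 ± 0.12 at 2 h and -0.31 ± 0.12 at 36 h (limma adjusted p = 0.0647 and 0.124). On Pcdhgc5 the highest dex array at 36 h, 0.061, nearly met the lowest DMSO array, 0.063. With the 36 h arrays fitted alone Pcdhgc5 did not pass (limma adjusted p = 0.0908). The 2 h separation was met on 2 of 54 members, both gamma C, and on 2.81% of all probes. Among members it was thus about as common as on the array.

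No alpha probe passed in any of the 5 comparisons, in which from 0.816% to 8.83% of all probes passed. With 9 probes, 0 calls is near those shares. Pcdha7 was higher with dex at 36 h on every array, by 0.18 ± 0.074 on the log2 scale (limma adjusted p = 0.15), and it passed at 0.0403 when the 36 h arrays were fitted alone. Pcdha10 had a log2 difference of -0.37 ± 0.14 (limma adjusted p = 0.119). The alpha probes were noisier than the rest, with a median SD around the group means of 0.217, against 0.164 for beta and 0.165 for gamma. Single arrays set 2 of the larger alpha differences: Pcdha1 stood at -2.41 on DMSO 36 h replicate 4 and Pcdha5 at -2.87 on DMSO 2 h replicate 1. A further 15 probes each name Pcdha8 together with other genes. The names were counted on 1 of these probes, which lists 14 genes, as a probe in the shared alpha exons would. Of the 15 probes 0 passed with dex at either time, where 2.22% of all probes passed at 2 h and 8.83% at 36 h. Their median log2 difference was -0.063 at 36 h and -0.074 at 2 h. At 36 h 13 of the 15 were negative and 2 positive, where 19641 of all 38467 probes were negative.

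**Figure D3:**
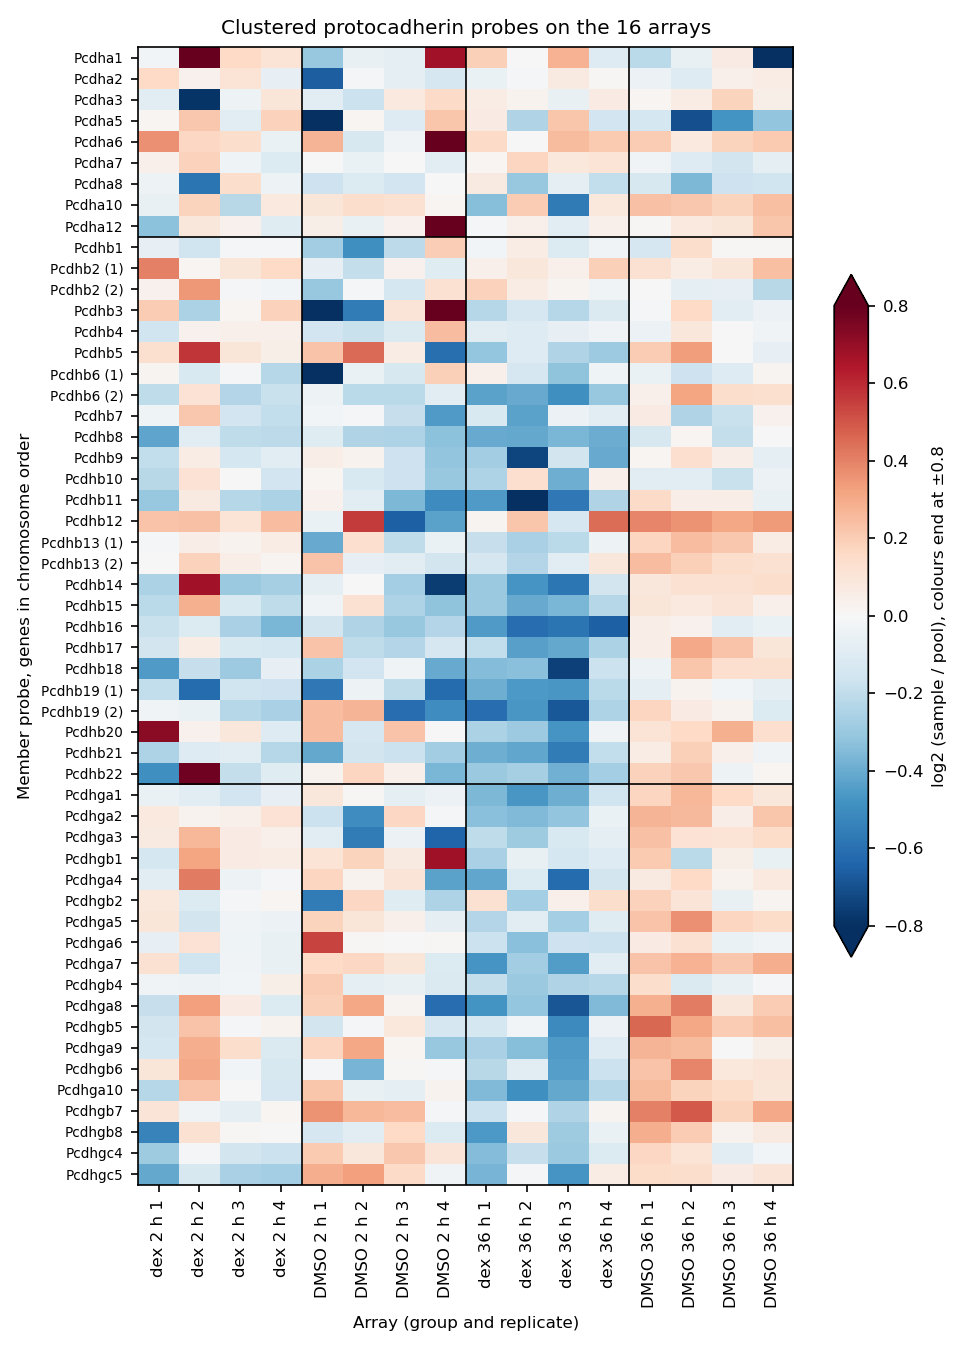
Log2 ratio of sample over pool (colour, limited to ± 0.8) for each of the 54 member probes (y axis, genes in chromosome order) on each of the 16 arrays (x axis). Horizontal lines divide alpha, beta and gamma. The dex 36 h arrays are blue, below the pool, across most of beta from Pcdhb6 on and across gamma, next to mostly red DMSO 36 h arrays.

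At 2 h no member passed in the comparison of dex with DMSO, where 2.22% of all probes were called. At an unadjusted p under 0.05 there were 3 of 54 members higher and 3 lower. Of all 38467 probes, 2237 were higher and 1918 lower at that threshold, so the members stood near the array as a whole. The median log2 difference at 2 h was 0.080 for beta, -0.056 for gamma and -0.022 for alpha. Among the 19 probes that fell at 36 h the 2 h difference ran from -0.21 for Pcdhgb7 to 0.19 for Pcdhga2.

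The change of the dex effect between times, the 36 h difference minus the 2 h difference, passed on 4 members and was negative on each, where 2.40% of all probes passed and 0.936% were called lower. The change contains the 36 h difference by which the family was chosen. These calls are therefore a description too, and no independent evidence for the family. Pcdhb16 had log2 ratios of -0.18, -0.11, -0.26 and -0.37 with dex at 2 h, against -0.15, -0.24, -0.30 and -0.23 with DMSO. Those groups overlapped, unlike the 36 h ones above, and the change was -0.56 ± 0.11 on the log2 scale (limma adjusted p = 0.0102). Pcdhb6 had -0.20, 0.12, -0.23 and -0.18 with dex at 2 h, against -0.041, -0.22, -0.22 and -0.089 with DMSO, and a change of -0.58 ± 0.13 (limma adjusted p = 0.0247). Pcdhb21 had -0.25, -0.11, -0.090 and -0.23 with dex at 2 h, against -0.41, -0.15, -0.17 and -0.28 with DMSO, and a change of -0.54 ± 0.13 (limma adjusted p = 0.0368). On all 3 beta probes the groups overlapped at 2 h and were separate at 36 h.

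Pcdhga3 had separate groups at both times, in opposite directions. At 2 h it had 0.073, 0.27, 0.064 and 0.039 with dex, against -0.082, -0.56, -0.047 and -0.64 with DMSO, so dex was above on every array, as on 3.07% of all probes. At 36 h it had -0.21, -0.28, -0.12 and -0.074 with dex, against 0.24, 0.12, 0.11 and 0.15 with DMSO, so dex was below on every array. The change was -0.77 ± 0.17 on the log2 scale (limma adjusted p = 0.0266), while neither time passed alone (adjusted p = 0.092 at 2 h and 0.124 at 36 h). The DMSO 2 h values were low on replicates 2 and 4 and nearer to the pool on the other 2 arrays. Over 22 alternative settings the changed-effect call was lost in 13 for Pcdhb21, in 9 for Pcdhga3, in 6 for Pcdhb6 and in 1 for Pcdhb16. The count of members with a changed effect moved between 1 and 7 when single arrays were left out. It was 1 without dex 36 h replicate 1 or DMSO 36 h replicate 2, 3 or 4, it was 2 without dex 2 h replicate 2 or 3, dex 36 h replicate 3 or DMSO 36 h replicate 1, and it was 7 without dex 36 h replicate 4. The shares of all probes in these fits are not given here either.

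**Figure D4:**
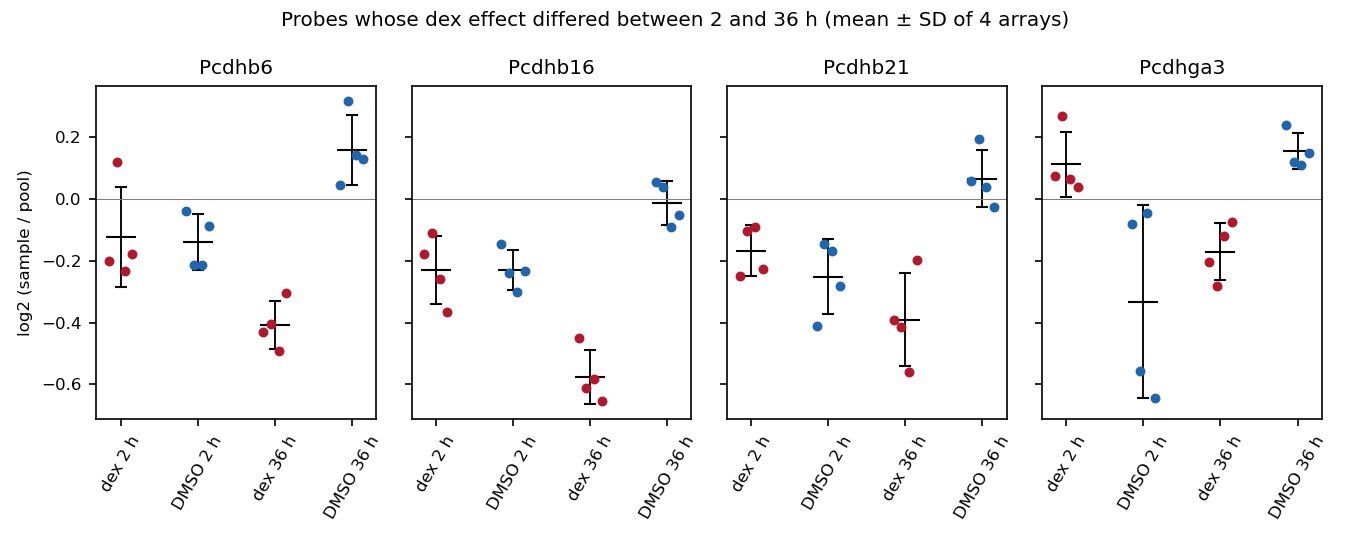
Log2 ratio of sample over pool (y axis) on each array by group (x axis) for the 4 probes whose dex effect differed between 2 and 36 h. Points are arrays (red dex, blue DMSO) and bars with whiskers are the mean ± SD of 4 arrays. Pcdhb6, Pcdhb16 and Pcdhb21 have overlapping groups at 2 h and separate groups at 36 h, and Pcdhga3 turns from dex above DMSO to dex below it.

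The beta and gamma means differed between the times in opposite directions in DMSO and dex cells. In DMSO cells the beta mean was higher at 36 h than at 2 h by 0.20 on the log2 scale and the gamma mean by 0.14, and in dex cells the differences between 36 h and 2 h were -0.20 for beta and -0.22 for gamma. The alpha mean had the same sign in both, with differences between 36 h and 2 h of -0.029 in dex cells and -0.050 in DMSO cells, as did gamma C with -0.0040 in dex cells and -0.093 in DMSO cells. No member passed between 36 h and 2 h in DMSO cells, where 0.816% of all probes did. At an unadjusted p under 0.05 there were 14 of 54 members, all higher at 36 h. Of all 38467 probes, 1752 were higher and 2702 lower at that unadjusted threshold. On 10 members every DMSO 36 h array lay above every DMSO 2 h array, as on 4.08% of all probes. In dex cells 1 member passed, where 1.68% of all probes did. It was Pcdhb16, with a log2 difference between 36 h and 2 h of -0.35 (limma adjusted p = 0.0355), and that call was lost in 14 of 23 alternative settings. On 13 members every dex 36 h array lay below every dex 2 h array, as on 6.56% of all probes. These comparisons share their arrays with those of dex against DMSO.

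Across the 16 arrays the gamma probes had the highest mean correlation of the clusters. The mean Pearson correlation between pairs of probes was 0.48 within gamma, 0.30 within beta, 0.0065 within alpha and 0.35 between beta and gamma, and 0.0017 between all probes. The points share the pool and the 4 groups. After the group means were removed it was 0.26 within gamma, 0.11 within beta, 0.031 within alpha and 0.15 between beta and gamma. Alpha probes had a mean correlation of -0.049 with beta probes and -0.088 with gamma probes.

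A pair of probes was present for 4 beta genes. On the values, the pair for Pcdhb2 correlated at -0.083, that for Pcdhb6 at -0.053, that for Pcdhb13 at 0.44 and that for Pcdhb19 at 0.40. After the group means were removed, the pair for Pcdhb2 stood at -0.51, that for Pcdhb6 at -0.24, that for Pcdhb13 at -0.20 and that for Pcdhb19 at 0.13. Neighbouring genes had a mean correlation of 0.22 in beta and 0.22 in gamma. The 2 gamma C probes correlated at 0.41 on average with the gamma A and gamma B probes. The part of cross-reading between similar members in these values was not tested.

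**Figure D5:**
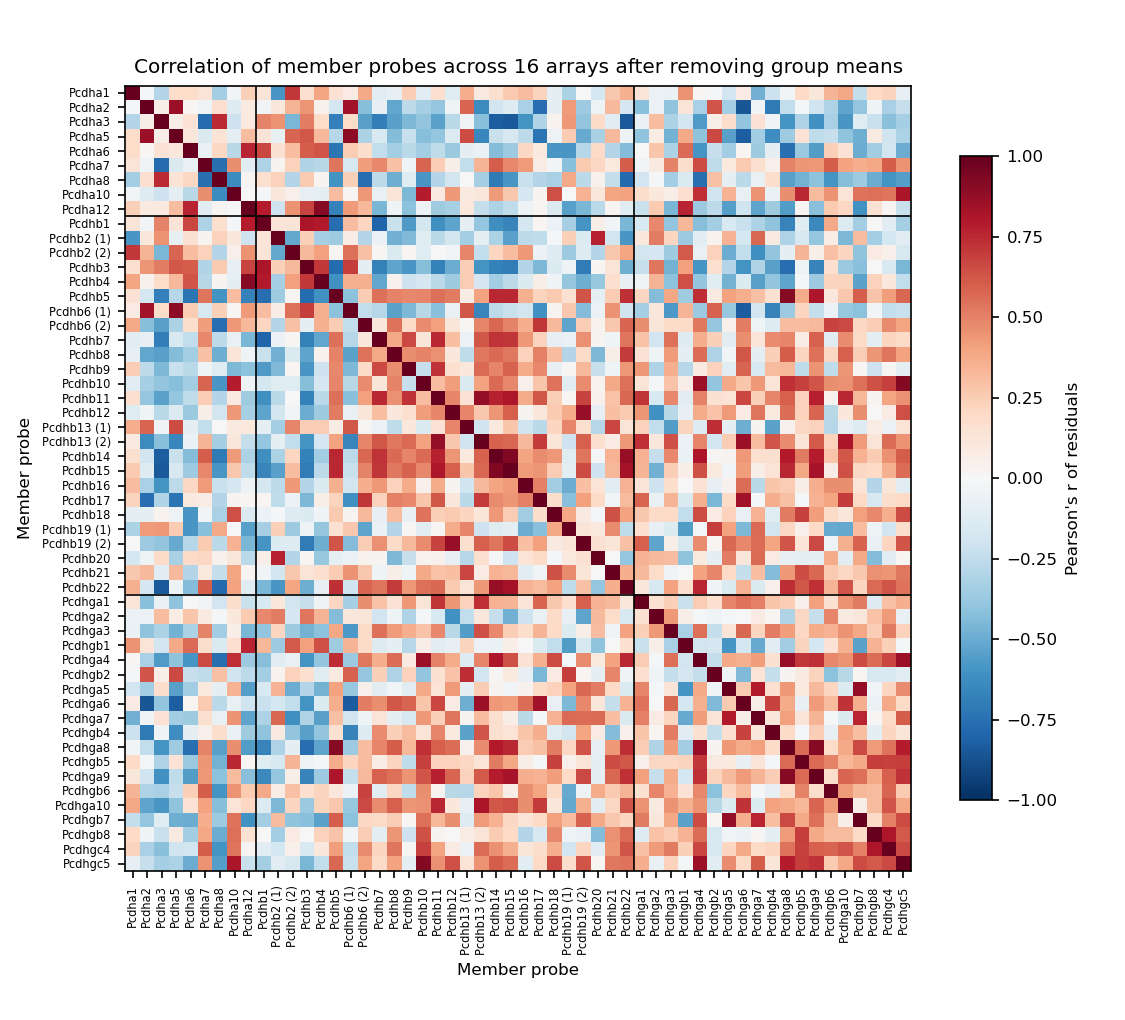
Pearson correlation across the 16 arrays, after the mean of each group was removed, between every pair of the 54 member probes (both axes, genes in chromosome order, colour from -1 to 1). Lines divide alpha, beta and gamma. Positive values gather among the later beta probes and the gamma probes, with a mean of 0.26 within gamma and 0.15 between beta and gamma, and alpha has a mean of 0.031.

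Protocadherins outside the rule moved in several ways. Of 14 such genes, 3 fell and 1 rose with dex at 36 h, where 4.83% of all named genes had a probe called lower only and 6.75% higher only. Pcdh18, a non-clustered protocadherin, fell at both times, with log2 differences of -1.31 ± 0.11 at 2 h (limma adjusted p = 4.20e-06) and -1.59 ± 0.11 at 36 h (limma adjusted p = 1.67e-07). At 2 h it was the 1 gene of the list to pass, where 1.21% of named genes were called lower only. Pcdh7 fell by 0.80 ± 0.15 and Pcdh19, on 1 of its 2 probes, fell by 0.42 ± 0.093 at 36 h (limma adjusted p = 0.0028 and 0.0103), while 1 probe of Pcdh12 rose by 0.66 ± 0.17 (limma adjusted p = 0.027) and its other probe had -0.0075. Pcdhac1 and Pcdhac2, the C-type alpha isoforms that the rule leaves out, had log2 differences of 0.018 and 0.014 at 36 h.

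Of 22 measured genes for the architecture and silencing of the clusters, 2 rose and 2 fell at 36 h, near the 6.75% and 4.83% of all named genes. The cohesin subunits Smc1a and Rad21 rose by 0.35 and 0.27 on the log2 scale (limma adjusted p = 0.0109 and 0.0353), Smc1a on 1 of its 4 probes. Tet1 and Tet2, enzymes that oxidise methylated cytosine, fell by 0.38 and 0.33 (limma adjusted p = 0.0144 and 0.0051), Tet2 on 1 of its 2 probes. That Tet2 probe was the 1 call of the list at 2 h, with a log2 difference of -0.27 (limma adjusted p = 0.0447). Of 16 measured genes for intracellular partners and processing, 1 rose and 2 fell at 36 h, against the same shares of all named genes. Ptk2b, the kinase Pyk2 that clustered protocadherins inhibit in neurons, rose by 1.63 ± 0.19 (limma adjusted p = 5.60e-05). Marcks, an actin-linked substrate of protein kinase C, fell by 1.11 ± 0.086 (limma adjusted p = 5.15e-07), and the kinase Prkcd fell by 0.42 (limma adjusted p = 0.0011). Both had also fallen at 2 h, with log2 differences of -0.39 for Marcks and -0.48 for Prkcd (limma adjusted p = 0.0205 and 7.02e-04).

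Markers of the cell types were read on the same arrays, and their counts at 36 h stand against 6.75% of all named genes called higher only and 4.83% lower only. Of 9 measured fibroblast or preadipocyte markers 5 fell at 36 h, and the mean over the list ran from -0.18 to -0.029 on dex arrays and from 0.12 to 0.47 on DMSO arrays. Of 11 neuron markers, 2 rose at 36 h, Rbfox3 and, on 1 of its 2 probes, Syp, and the list mean ran from -5.46e-04 to 0.18 with dex and from -0.18 to -0.11 with DMSO. Of 5 astrocyte markers 1 fell (Slc1a3), of 5 macrophage markers 1 fell (Lyz2, on 1 of its 3 probes), and of 5 endothelial markers 0 passed. Each list mean took 1 probe per gene, the one with the smallest p in an F test of both dex contrasts. That choice favours a difference between dex and DMSO, so the separation of the list means is no evidence for the lists. The Syp probe left out had a log2 difference of -0.45 at 36 h (limma adjusted p = 0.128). Ratios to a pool do not show whether a marker is absent. The part of these markers in the results on the clusters was not tested.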

How the data were processed

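Total RNA from 16 cultures was hybridised to 2-colour arrays, 1 array each, and the value deposited for each probe and array is a log ratio, sample to pool, that was used as log2. The authors used limma, per the submitters' processing notes. No source used here gives the log base, the background correction or the normalization. Base 2 was assumed, as limma works on that scale, and another base would scale every stated difference by a constant. No value was renormalized. All arrays have the same dye orientation. All 54 member probes had values on all 16 arrays, and 131 values of other probes were missing on 3 arrays. No sample column was left unused.

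The means of the 4 groups were fitted per probe with lmFit and eBayes (limma 3.58.1, R 4.3.3), without covariates, and each of 5 contrasts was adjusted over the 38467 probes by Benjamini-Hochberg, with a threshold of 0.05. The script was tested on simulated data in which few probes changed. Planted log2 changes of 0.4 were recovered in 17.9% of cases at 2 h and 17.3% at 36 h. Changes of 0.7 were recovered in 52.7% and 55.2%, and changes of 1 in 82.2% and 80%. A member that did not pass may thus still differ. Replicate numbers have no stated shared origin, so they were not used as pairs in the main fit. Same-numbered arrays deviated together (r over 0.1) in 5 of 24 pairs, and differently numbered arrays in 6 of 72. The highest correlation, 0.34, was of a same-numbered pair. Whether same-numbered cultures shared an origin was not tested, and a fit with the number as a block is among the alternatives.

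Gene names are those of the platform annotation, and gene order is from a RefSeq table of GRCm38.p6, which held all 54 member probes. Arrays are given singly for each member that passed in any contrast. From each other list at most 4 passing and 2 non-passing genes were eligible, by the smallest p of an F test of both dex contrasts, each by its probe with that p. The members and lists were chosen with earlier results of these data known. Alternatives were other fits, scalings and thresholds, and each array left out in turn. Signal over background and sequences were not analysed here.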

Additional observations from a re-analysis of the deposited data

Results flagged for a closer look

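In groups of 4 arrays, 6 of 92 sets of values held 1 array far from the other 3 by Dixon's test, where chance gives about 5%. On dex 2 h replicate 2, Pcdhb6 stood at 0.12 while the other dex 2 h arrays lay between -0.23 and -0.18, and Pcdhb17 stood at 0.058 while the others lay between -0.15 and -0.12. On the same array Pcdhga3 stood at 0.27, the others at 0.039 to 0.073, and the beta cluster mean at 0.083, the others at -0.095 to -0.080. Pcdhga2 stood at -0.055 on dex 36 h replicate 4, with the other dex arrays at -0.35 to -0.32. Pcdhgb6 stood at -0.37 on DMSO 2 h replicate 2, with the others at -0.014 to 0.0097. All values are log2 ratios of sample over pool.

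The effect of dex differed between 36 h and 2 h, by the interaction term of the limma fit, on 4 members. The log2 change of the effect was -0.58 for Pcdhb6, -0.56 for Pcdhb16, -0.54 for Pcdhb21 and -0.77 for Pcdhga3.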

How the results depend on the processing

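No called result changed direction under any alternative. The alpha cluster difference at 2 h, which has no call, changed sign: 0.075 with all arrays, it was -0.048 without DMSO 2 h replicate 1 and 0.19 without DMSO 2 h replicate 4. Of 548 recalculations of the member results, 449 kept their side of the threshold and 99 lost it. Pcdhb6, Pcdhb16, Pcdhb17, Pcdhb21, Pcdhga1, Pcdhga5, Pcdhga7, Pcdhga10 and Pcdhgb7 passed at 36 h in all 23 alternatives, while Pcdhb13 lost its call in 12, Pcdhb9 in 10 and Pcdhb15 in 8.

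For dex against DMSO at 36 h the 19 members became 33 with the 36 h arrays alone, 37 with array weights (38.4% of all probes passed), 31 with quantile normalization (17.3%) and 8 at log-odds above 0 (3.80%). Leaving out single arrays gave 10 to 24. For dex against DMSO at 2 h the 0 became 1 with array weights, quantile normalization or probes of a gene averaged, and 0 to 1 without single arrays. For the change of the dex effect between times the 4 became 16 with array weights, 13 with quantile normalization and 2 at log-odds above 0, and 1 to 7 without single arrays. For DMSO 36 h against DMSO 2 h the 0 became 2 with quantile normalization and 0 to 1 without single arrays. For dex 36 h against dex 2 h the 1 became 0 with the groups' arrays alone, quantile normalization or trend and robust estimation, 11 with array weights and 0 to 2 without single arrays. A count of members under an alternative setting, given without the share of all probes, cannot be set against the array as a whole. This holds most for array weights, under which many more probes passed at 36 h. The causes were not tested.

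With the replicate number as a block, 16 members passed at 36 h and 2 had a changed effect. Cluster differences moved by less than the spread of the arrays, and at 36 h ran from -0.43 to -0.35 for gamma and from -0.34 to -0.28 for beta without single arrays. With group means removed the mean correlation was 0.107 within beta, 0.257 within gamma and 0.149 between them. The number of arrays limits the precision.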

Other observations

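Genes next to the clusters were looked up after the values were seen. Slc25a2, a mitochondrial carrier gene between the beta and gamma arrays, rose with dex at 36 h by 0.30 ± 0.086 on the log2 scale (limma adjusted p = 0.0427), opposite in sign to the beta and gamma medians. Taf7, a subunit of the general transcription factor TFIID whose gene lies in the same gap, had log2 differences of 0.24, -0.11 and 0.018 on its probes, and none passed. None of the 5 genes before the alpha array (Wdr55, Dnd1, Hars, Hars2 and Zmat2) and none of the 5 after the gamma array (Diaph1, Hdac3, Rell2, Fchsd1 and Arap3) passed at 36 h.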
